A study of Mus musculus with 2 samples.

Results

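A group of 9 mouse miRNA genes, Mir744, Mir328, Mir151, Mir191, Mir425, Mir342, Mir149, Mir186 and Mir340, was described in left cerebral cortex, out of 2202 miRNA genes annotated in GENCODE M21. They had been picked by name, as miRNAs with single copies that lie inside host genes and reach high levels, so their sense counts chose them and are given without a test. Tissue came from B6CASTF1/J mice, the first-generation cross of the strains C57BL/6J and CAST/EiJ from The Jackson Laboratory, aged 18 to 20 months. The labels form 1 group of 2 biological replicates, with no treatment, no altered gene and no second age or tissue. The sex field says female and the free text says male. Both libraries carry 1 donor identifier with separate biosample identifiers, so the spread between them may be technical. RNA under 30 nucleotides was sequenced from total RNA.

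A miRNA gene is transcribed as part of a longer RNA, from which Drosha cuts a hairpin and Dicer then cuts a duplex of short strands. A strand loaded into an Argonaute protein pairs with messenger RNAs mainly through its seed, bases 2 to 8, and lowers their translation and stability. A miRNA inside an intron of a gene on the same strand is often made from the host's own transcript, although some have promoters of their own. In brain, miRNAs are known to act on neuronal growth and on synaptic proteins.

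RefSeq (build GRCm38.p6) held mature sequences for 7 of the 9 genes, Mir328 and Mir151 being the others. They are shown because the seed, in capitals, sets what each miRNA pairs with, and because a count per gene adds up both arms of the hairpin.
mmu-miR-744-5p: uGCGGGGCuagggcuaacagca
mmu-miR-744-3p: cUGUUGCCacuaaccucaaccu
mmu-miR-191-5p: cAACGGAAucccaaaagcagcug
mmu-miR-191-3p: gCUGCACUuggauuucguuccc
mmu-miR-425-5p: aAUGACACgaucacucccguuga
mmu-miR-425-3p: aUCGGGAAugucguguccgcc
mmu-miR-342-5p: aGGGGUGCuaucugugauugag
mmu-miR-342-3p: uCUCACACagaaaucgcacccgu
mmu-miR-149-5p: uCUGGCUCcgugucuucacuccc
mmu-miR-149-3p: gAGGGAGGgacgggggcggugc
mmu-miR-186-5p: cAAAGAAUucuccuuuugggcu
mmu-miR-186-3p: gCCCUAAGgugaauuuuuuggg
mmu-miR-340-5p: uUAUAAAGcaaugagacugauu
mmu-miR-340-3p: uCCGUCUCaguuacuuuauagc

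The 14 mature sequences carried 14 different seeds, so none of these 7 genes formed a seed family with another of the 7. Seeds of Mir328 and Mir151 were not compared. Of the 14 seeds, 2 recurred among the 1738 mature sequences of the RefSeq table. The seed of mmu-miR-425-5p was that of mmu-miR-489-3p, whose gene Mir489 had 0 counts in both libraries. The seed of the G-rich mmu-miR-149-3p, whose GC content was 81.8%, also occurred in mmu-miR-1943-5p, mmu-miR-6967-5p and mmu-miR-7016-5p. Mir1943 had 13 counts in replicate 1 and 6 in replicate 2, and Mir7016 had 31 and 16. At the other end, mmu-miR-340-5p had a GC content of 27.3%.

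The single-copy description held by sequence when hairpins were compared in the same orientation. All 9 were then free of any stretch of 20 nucleotides in common with another annotated miRNA gene, against 1118 of all 2202 genes. Over the 141767 transcripts of GENCODE M21 the hairpins of Mir191 and Mir425 matched their own host RNA, and that of Mir191 matched, in reverse orientation, the miRNA gene annotated opposite it, Gm24083. The hairpin of Mir151 also matched 1 transcript of Klf3, in reverse orientation. Copies outside annotated transcripts were not analysed here.

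The host description held for 8 of the 9, and for 6 of them the host was protein-coding. Mir744 (ENSMUSG00000076460.1, chr11:65734733-65734832, minus strand, mm10) lies in an intron of Map2k4, a kinase that activates the JNK and p38 pathways. Mir151 (ENSMUSG00000065612.1, chr15:73254815-73254882, minus strand) lies in an intron of Ptk2, which encodes focal adhesion kinase. Mir342 (ENSMUSG00000065436.1, chr12:108658620-108658718, plus strand) lies in an intron of Evl, an actin regulator of the Ena/VASP family.

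Mir149 (ENSMUSG00000065470.1, chr1:92850378-92850443, plus strand) lies in the first intron of Gpc1, the heparan sulfate proteoglycan glypican-1. Mir340 (ENSMUSG00000065417.1, chr11:50069702-50069799, plus strand) lies in the second intron of Rnf130, a RING-type ubiquitin ligase. Mir186 (ENSMUSG00000065431.1, chr3:157544279-157544349, plus strand) lies in an intron of Zranb2, a zinc finger protein that takes part in splicing. Each of these 6 hosts held 1 annotated miRNA gene.

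Within their introns the 6 genes had no common position. Mir744 began 359 nucleotides after the upstream exon of an intron of 15588 nucleotides, the nearest to an upstream exon of the 6. Mir151 began 2151 nucleotides into an intron of 14556, and Mir342 began 5520 nucleotides into one of 20189. Mir149 and Mir340 lay towards the downstream exon, 2903 and 1371 nucleotides before it, in introns of 21249 and 18200 nucleotides. The intron of Mir186 was the shortest, at 1719 nucleotides, with 614 of them between the miRNA gene and the downstream exon. Distances are for the transcripts of GENCODE's basic set.

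**Figure D1:**
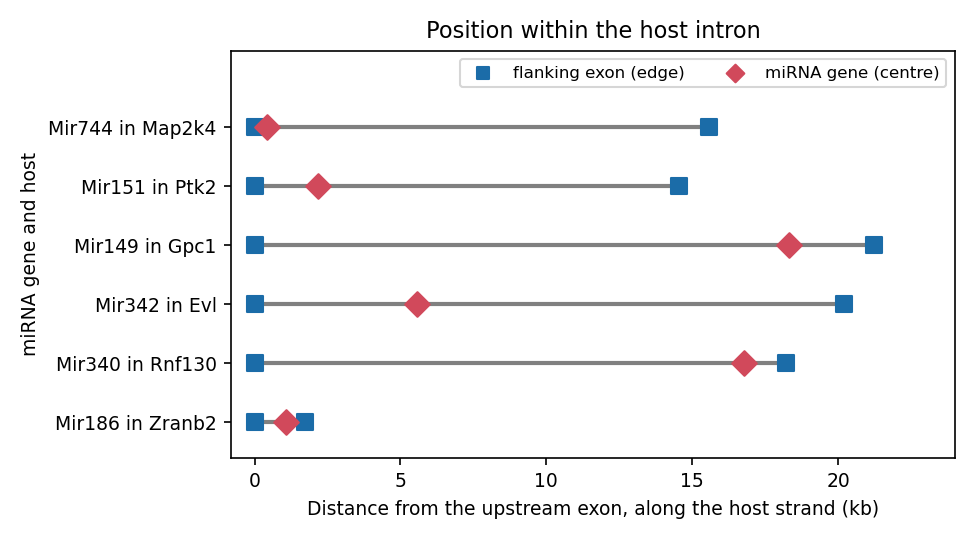
Position of 6 miRNA genes (diamonds) in the intron of their protein-coding host, drawn to scale as the distance in kb from the upstream exon along the host strand, with squares at the edges of the flanking exons. Mir744 sits 359 nucleotides after its upstream exon, while Mir149 and Mir340 sit nearer the downstream exon.

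Mir191 (ENSMUSG00000105497.1, chr9:108568319-108568392, plus strand) and Mir425 (ENSMUSG00000065579.1, chr9:108568777-108568861, plus strand) share a host, the lincRNA 4833445I07Rik, and are 384 nucleotides apart. Both fall within the exon of its unspliced transcript. In its spliced transcript Mir191 falls within the intron, of 303 nucleotides. The next protein-coding gene downstream on that strand, Dalrd3, began 1024 nucleotides after Mir425, so in this annotation it contained neither gene.

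Mir328 (ENSMUSG00000070130.1, chr8:105308364-105308460, minus strand) had no host on its own strand. It lies across from Elmo3, an engulfment and motility gene on the plus strand, with 12 of its 97 nucleotides opposite an Elmo3 exon. The nearest protein-coding gene upstream on the minus strand, Lrrc29, was 3804 nucleotides away. A miRNA gene without a miR name, Gm27320, lies 463 nucleotides from Mir328 and had 0 counts in both libraries. The description as a gene inside a host therefore did not hold for Mir328 in GENCODE M21.

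Libraries were of like depth, with 5166667 sense counts of miRNA genes in replicate 1 and 4459993 in replicate 2. Levels are CPM, the count per 1000000 of these sense counts. They were not divided by gene length, since a small RNA read spans a whole mature miRNA. Adapter ligation and amplification efficiency differ between miRNA sequences, and their part in the levels was not tested. Reads of the CAST allele that differ from the reference could be lost, which was not tested either. Reads with several places in the genome, 41.8% of the first library and 46.4% of the second, are listed apart from the gene counts. Of the neuronal markers 5 of 8 genes were expressed, here meaning at least 2 CPM in each library, and the list summed to 36750 CPM (replicate 1) and 32334 CPM (replicate 2). The others were Mir124a-1, Mir124a-2 and Mir124a-3, copies of the same miRNA, whose reads with several places would be missing from the gene counts. The oligodendrocyte markers were expressed in 2 of 2 genes, at 3945 and 3862 CPM. The striated muscle list was at 18.2 and 65.5 CPM, with 4 of its 5 genes at 0. Fewer cells of a type and less RNA per cell cannot be told apart in bulk tissue.

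All 9 genes met that level of 2 CPM, against 18.6% of all annotated genes. That share is given as background only, since levels chose the genes. Together they took up 8.84% (95% exact interval 8.82% to 8.87%) of the sense counts of replicate 1 and 7.77% (7.74% to 7.79%) of those of replicate 2. Their summed level was 83048 ± 7599 CPM (SD, n = 2). Mir744 alone made up 39.8% of the sum in replicate 1 and 50.1% in replicate 2. Intervals are Clopper-Pearson and cover counting error only.

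Of the 6 genes of the group in protein-coding introns, Mir744 was the highest. It had 181747 counts in replicate 1 and 173723 in replicate 2, which is 35177 CPM (95% exact interval 35018 to 35336) and 38951 CPM (38772 to 39131). It was at place 7 of all genes by mean level, at 37064 ± 2669 CPM (SD, n = 2). Its next neighbours over all genes were Mir132 above it, at 38067 ± 6199 CPM, and Mirlet7e below it, at 30020 ± 3984 CPM. The ranges of Mir744 and Mir132 overlapped, and those of Mir744 and Mirlet7e did not.

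Mir151, whose human counterpart is known to act with its host kinase in the migration of liver cancer cells, had 48675 counts in replicate 1 and 52926 in replicate 2. Those are 9421 CPM and 11867 CPM, a mean of 10644 ± 1729 CPM (SD, n = 2). Mir149 had 63814 counts in replicate 1 and 14834 in replicate 2, or 12351 CPM and 3326 CPM. Its mean of 7839 ± 6382 CPM (SD, n = 2) therefore stands between a high and a low library.

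Mir342, whose human counterpart shares a promoter with EVL that is methylated in colorectal cancer, had 24564 counts in replicate 1 and 15567 in replicate 2. Its levels were 4754 CPM and 3490 CPM, with a mean of 4122 ± 893.8 CPM (SD, n = 2). Mir340 and Mir186 were far lower. Mir340 had 955 counts in replicate 1 and 223 in replicate 2, or 184.8 CPM (95% exact interval 173.3 to 196.9) and 50.0 CPM (43.7 to 57.0). Mir186, reported to repress Bace1 in mouse neuronal cells, had 591 counts in replicate 1 and 500 in replicate 2, or 114.4 CPM (105.3 to 124.0) and 112.1 CPM (102.5 to 122.4).

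The means of Mir340 and Mir186 were 117.4 ± 95.3 CPM and 113.2 ± 1.61 CPM (SD, n = 2). The median of the 409 expressed genes was 88.9 CPM, and Mir340 lay below that value in replicate 2. By mean level the pair stood at places 193 and 197 of all genes. The description as abundant miRNAs therefore did not hold for Mir340 and Mir186 to the degree it held for the 6 genes above 1000 CPM. Mir425 also lay under 1000 CPM, at a mean of 464.8 CPM and place 123.

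The lincRNA pair was unequal. Mir191, often used as a reference miRNA in human assays, had 51118 counts in replicate 1 and 45147 in replicate 2, or 9894 CPM and 10123 CPM. Mir425, which represses the natriuretic peptide gene NPPA in human cells, had 2997 counts in replicate 1 and 1559 in replicate 2. Its levels were 580.1 CPM (95% exact interval 559.5 to 601.2) and 349.6 CPM (332.4 to 367.3). Means were 10008 ± 161.8 CPM for Mir191 and 464.8 ± 163.0 CPM for Mir425 (SD, n = 2).

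Counts of Mir191 were 17.1 times those of Mir425 in replicate 1 (95% exact counting interval 16.4 to 17.7) and 29.0 times in replicate 2 (27.5 to 30.5). The counting intervals did not overlap, and the ratio was 1.70 times higher in replicate 2. Library size cannot enter this ratio, because both genes were counted in the same library. The mean ratio was 23.0 ± 8.42 (SD, n = 2). It rests on the strand column, as described for the opposite gene of Mir191.

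Mir328, the gene with no same-strand host, is known as a decoy for the protein hnRNP E2 in human leukaemia cells and as a repressor of Bace1 in mouse cells. It had 82383 counts in replicate 1 and 41952 in replicate 2. Its levels were 15945 CPM (95% exact interval 15837 to 16054) and 9406 CPM (9317 to 9496), with a mean of 12676 ± 4624 CPM (SD, n = 2). It was the second highest of the 9 by mean, but stood below Mir151 and Mir191 in replicate 2.

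**Figure D2:**
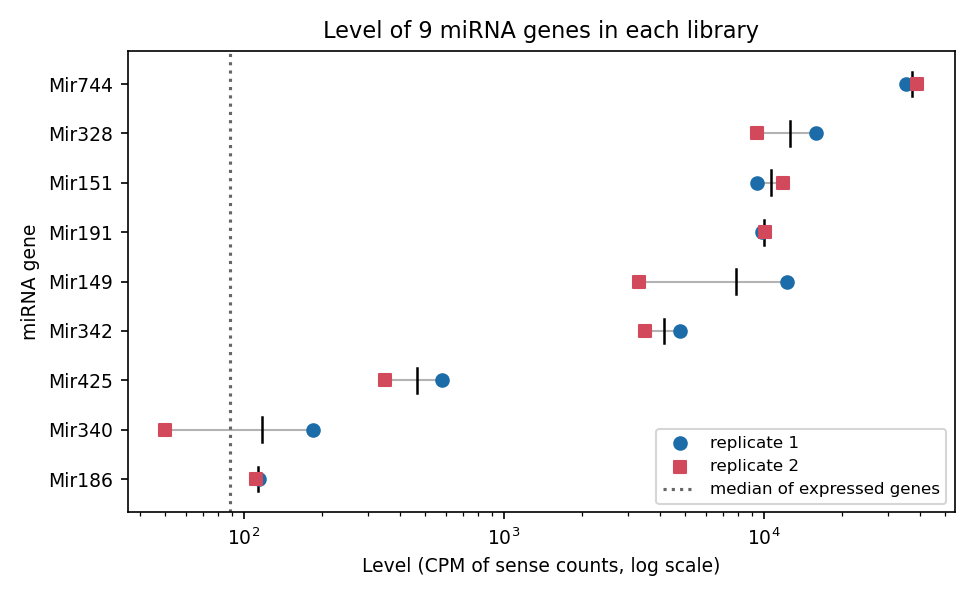
Level of each of the 9 miRNA genes in CPM of sense counts on a log axis, with a circle for replicate 1, a square for replicate 2, a black bar at their mean and a dotted line at the median of expressed genes. Mir744 stands apart at the top, Mir149 and Mir340 show the widest gaps between the libraries, and Mir186 and Mir191 the narrowest.

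Levels spanned 327-fold between the means of Mir744 and Mir186. Of the 8 pairs of neighbours in the order of means, 3 had library ranges that did not overlap. These were Mir744 above Mir328 (2.92-fold by mean), Mir342 above Mir425 (8.87-fold) and Mir425 above Mir340 (3.96-fold). The other 5 pairs overlapped and changed places between the libraries, so that Mir328, Mir151, Mir191, Mir149 and Mir342 formed a run whose neighbours were not told apart by their spread. Mir340 was above Mir186 in replicate 1 and below it in replicate 2.

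Spread between the libraries differed across the group. The SD was 1.42% of the mean for Mir186, 1.62% for Mir191 and 7.20% for Mir744. It was 16.2% for Mir151, 21.7% for Mir342, 35.1% for Mir425 and 36.5% for Mir328. For Mir340 and Mir149 it reached 81.2% and 81.4%. On raw totals the steadiest genes were thus not the most abundant ones, as Mir186 has the lowest mean of the 9. This order depends on scaling and was not tested. The SD of Mir191 was 161.8 CPM on raw totals, 798.8 CPM with TMM and 1158 CPM with DESeq2 size factors. For Mir186, an SD of 1.61 CPM is narrower than the counting interval of either library.

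Ratios of replicate 2 to replicate 1 were taken after TMM scaling, which raised all log2 ratios by 0.13 over raw totals, where DESeq2 size factors raised them by 0.20. They compare 2 libraries of 1 group and carry no p-value. Mir149 had a log2 ratio of -1.76 (95% counting interval -1.79 to -1.74) and Mir340 one of -1.75 (-1.97 to -1.55), each a difference of about the same size although their levels differ widely. Mir328 followed with -0.63 (-0.65 to -0.61) and Mir425 with -0.60 (-0.69 to -0.51). Mir342 had -0.32 (-0.35 to -0.29).

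On the other side, Mir151 had a log2 ratio of 0.46 (0.45 to 0.48), Mir744 of 0.28 (0.27 to 0.29) and Mir191 of 0.16 (0.14 to 0.18). For Mir186 the interval of 0.10 included 0 (-0.07 to 0.28). Mir186 was also the gene whose sign turned with the scaling, at -0.03 on raw totals. With TMM the 9 genes were thus split, 5 towards replicate 1 and 4 towards replicate 2. Over all expressed genes the median log2 ratio was -0.04.

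Of the 9 genes, 4 differed more than 1.5-fold between the libraries, as did 47.4% of the 409 expressed genes. All 4 were lower in replicate 2 (Mir149, Mir340, Mir328 and Mir425), a direction in which 28.1% of expressed genes passed that fold. Past 2-fold were 2, Mir149 and Mir340, beside 24.2% of expressed genes. The median absolute log2 ratio was 0.46 in the group and 0.54 over all expressed genes. In either direction, the shares past 1.5-fold (4 of 9) and 2-fold (2 of 9) are near the background and are no feature of the group. For the 1 direction, 4 of 9 were lower past 1.5-fold, beside 28.1% of expressed genes, and this was not tested. With DESeq2 size factors Mir328 (-0.56) and Mir425 (-0.53) were within 1.5-fold, which left 2 genes past it, beside 47.2% of expressed genes.

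**Figure D3:**
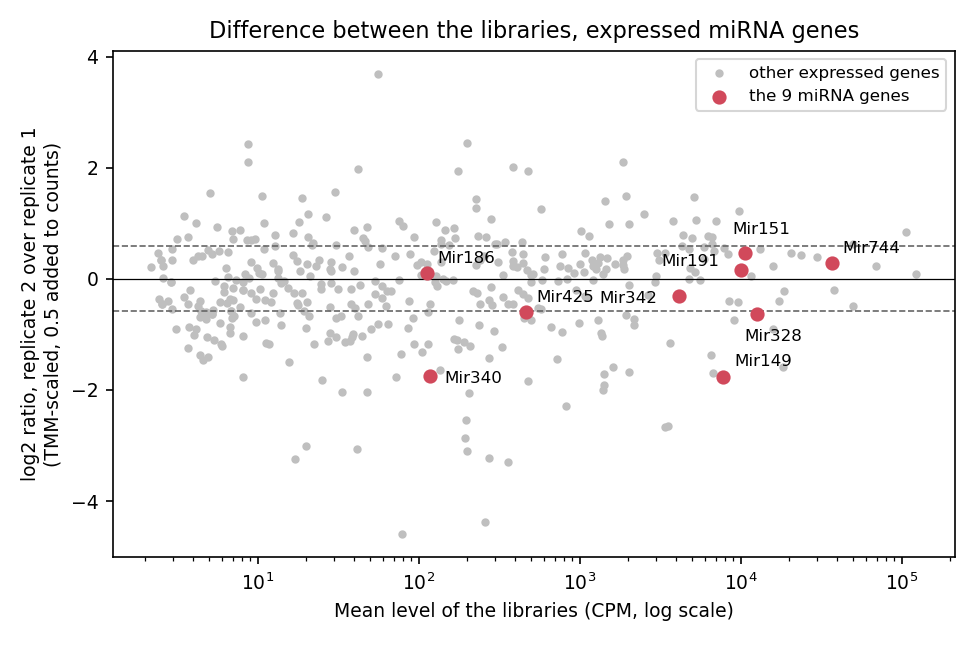
Log2 ratio of replicate 2 over replicate 1 (TMM-scaled) against the mean level in CPM on a log axis, with red points for the 9 miRNA genes, grey points for the other expressed genes and dashed lines at 1.5-fold. Mir149 and Mir340 lie near -1.76 and -1.75, and the remaining 7 lie among the bulk of expressed genes.

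Base composition moved with the library difference over all expressed genes. The median log2 ratio of expressed genes was 0.27 for hairpins under 40% GC (36 genes), 0.28 for 40% to 50% (131 genes), -0.06 for 50% to 60% (157 genes) and -0.55 for 60% or more (85 genes). Mir340 (37.8% GC) and Mir186 (33.8%) belong to the lowest class, Mir149 (68.2%) and Mir328 (67.0%) to the highest. Measured from the median of its own class, the log2 ratio of Mir149 was -1.22, that of Mir328 -0.09 and that of Mir340 -2.03. On that measure 2 of the 9 genes were past 1.5-fold, Mir149 and Mir340, beside 40.1% of expressed genes. Classes of GC content were chosen after the data were seen, and the part of base composition in the difference was not tested.

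Summed marker levels of some other cells differed between the libraries as well, and those of others hardly did. The epithelium list summed to 1555 CPM (replicate 1) and 398.0 CPM (replicate 2), with 6 of 7 expressed genes lower in replicate 2. The sensory organ list was at 1007 and 105.2 CPM, with both of its 2 expressed genes lower in replicate 2. The endothelial marker Mir126a was at 21256 and 10411 CPM, while the mural list was at 5077 and 9896 CPM. The choroid plexus list was at 723.9 and 1110.8 CPM, with 3 of 4 genes higher in replicate 2. The erythroid list was at 79.2 and 52.7 CPM, from the 2 of its 3 genes whose symbols were matched. The liver marker, at 54.6 and 60.1 CPM, was close in both libraries. The microglia and leukocyte list summed to 1381 and 1331 CPM, of which Mir150 (mean 1220 CPM, log2 ratio -0.03) made up most. The other 3 of its 4 genes were higher in replicate 2, with log2 ratios of 1.045 (Mir142), 1.17 (Mir223) and 0.88 (Mir155). No matched gene of these 8 lists was at 0 in both libraries. Their part in the values of Mir149, Mir340, Mir328 and Mir425 was not tested.

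**Figure D4:**
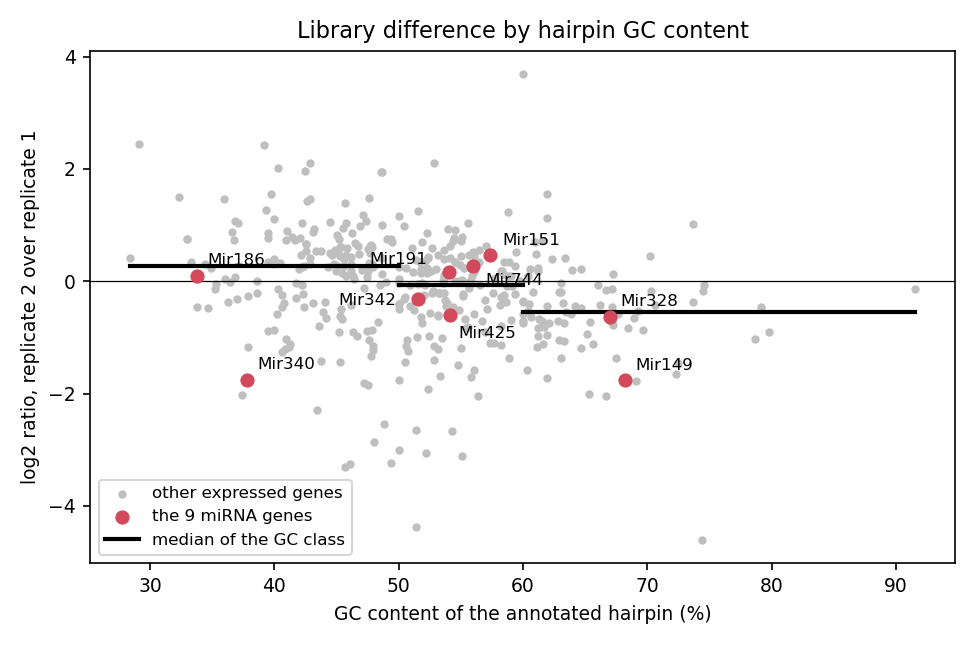
Log2 ratio of replicate 2 over replicate 1 against the GC content of the annotated hairpin in percent, with red points for the 9 miRNA genes, grey points for the other expressed genes and black lines at the median of each GC class. The median falls to -0.55 in the class of 60% or more, where Mir328 sits near its class median and Mir149 below it, while Mir340 lies far below a class with a median of 0.27.

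Strand counts were clean at 8 of the 9 genes. Together these 8 had 0 antisense counts beside 405726 sense counts in replicate 1, and 1 antisense count, at Mir425, beside 301284 sense counts in replicate 2. Elmo3 opposite Mir328 and the antisense RNA 1700085D07Rik opposite Mir151 thus left no small RNA counts at these genes above the limit of 3 counts that a count of 0 allows. That limit is 0.581 CPM in replicate 1 and 0.673 CPM in replicate 2. Without strand, the same 8 genes had 405726 and 301285 counts.

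Mir191 was the exception. Gm24083 (ENSMUSG00000092915.1, chr9:108568295-108568414, minus strand) is annotated as a miRNA gene across it and contains it whole. In the column without strand Mir191 had 0 counts in both libraries. In the antisense column Gm24083 had 51118 counts in replicate 1 and 45147 in replicate 2, equal to the sense counts of Mir191, and its own sense counts were 0. A user of the unstranded column would therefore find the gene at place 20 by mean level missing, and a Mir191 to Mir425 ratio of 0.

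Against other miRNA genes of the same layout, the 6 genes in protein-coding introns ranged widely. GENCODE M21 placed 969 miRNA genes within a protein-coding gene on the same strand, and 639 of these shared no stretch with another miRNA gene, of which 183 were expressed. Among those 183, by mean level, Mir744 was at place 3, Mir151 at place 8, Mir149 at place 12 and Mir342 at place 19, while Mir340 and Mir186 were at places 66 and 69. The 6 genes made up 13.4% of the summed level of the class in replicate 1 and 12.2% in replicate 2. With the 6 left out, the median of the 177 other expressed genes was 24.8 CPM. Higher genes of the class that are not among the 9 were Mir139 in Pde2a (123867 ± 2384 CPM), Mirlet7g in Wdr82 (106225 ± 36814 CPM) and, below Mir744, Mirlet7e in Spaca6. A list of names with no threshold thus left out genes above and between its own.

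The median of expressed genes with no shared stretch was 30.6 CPM for protein-coding hosts, 308.5 CPM for non-coding hosts and 222.6 CPM with no host on the strand, the 9 genes included. The host class shared by Mir744, Mir151, Mir149, Mir342, Mir340 and Mir186 was therefore the one with the lowest median. These medians cover expressed genes only, which were 28.6%, 57.0% and 22.3% of the classes in that order. Mir191 and Mir425 both lay above the median of non-coding hosts, and Mir328 lay far above that of genes with no host. Since levels chose the 9 genes, their places above these medians are a description only.

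**Figure D5:**
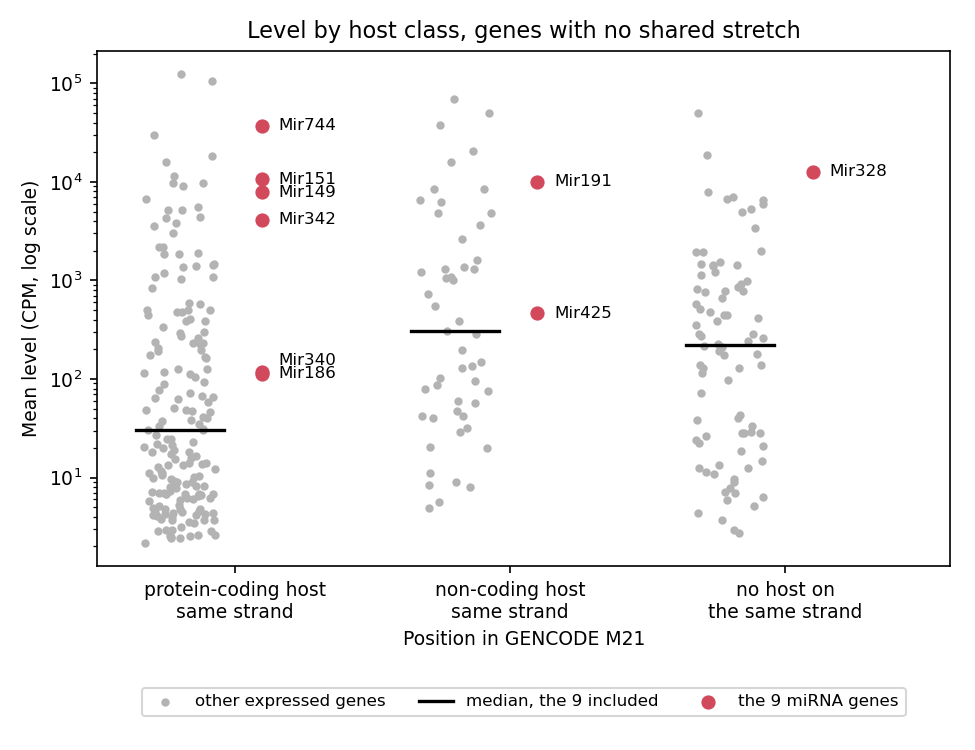
Mean level in CPM on a log axis of expressed miRNA genes that share no stretch of 20 nucleotides, by host class in GENCODE M21, with red points for the 9 miRNA genes, grey points for the others and black bars at the class median. Medians are 30.6, 308.5 and 222.6 CPM from left to right. Every one of the 9 genes, which were chosen by level, lies above the median of its class.

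A list of 45 other miRNAs known to lie in host genes gave a wider view. All 45 had a protein-coding host on their strand and 41 were expressed. The median level was 7839 CPM for the 9 genes, which were chosen by level, against 442.5 CPM for the 41 and 88.9 CPM for all expressed genes. Like the 9, 29 of the 45 shared no stretch with another miRNA gene, and the 25 of these that were expressed had a median of 1082 CPM. The highest of the 45 were Mir139, Mirlet7g, Mir128-1 (17218 ± 4441 CPM), the endothelial Mir126a (15834 ± 7669 CPM) and Mir652 in Tmem164 (11540 ± 467.5 CPM). Mir128-1 shares sequence with Mir128-2, so its count is uncertain. Between the libraries 22 of the 41 (53.7%) differed more than 1.5-fold, beside 47.4% of all expressed genes. The median log2 ratio was -0.32 for the 9 genes, against 0.35 for the 41, 0.13 for the 25 with no shared stretch and -0.04 for all expressed genes.

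For each of the 9, the expressed gene nearest in mean log2(CPM + 1) and in library ratio was taken as the most alike, over 2 libraries. Mir149 was nearest to Mir22 (log2 ratio -1.70), which had 10531 CPM in replicate 1 and 2963 CPM in replicate 2. Mir340 was nearest to Mir3072 (log2 ratio -1.64), Mir328 to Mir126a (-0.90) and Mir425 to Mir673 (-0.70). Mir744 was nearest to Mirlet7e (0.40), Mir151 to Mir23a (0.53) and Mir191 to Mir652 (0.05). Mir342 was nearest to Mir138-1 (0.00) and Mir186 to Mir16-2 (0.07). Counts of Mir23a, Mir138-1 and Mir16-2 are uncertain, as each has a stretch in common with a second gene of its name. With 2 libraries this likeness is a description of level and ratio and no pattern over conditions.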

How the data were processed

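MicroRNA sequencing gave 1 table of counts per library, not normalized by the authors. The deposited description of the files names build mm10 and GENCODE M21. Aligner and counter: not given in the sources used here. The tables list 2202 genes and 4 lines that name no gene (65.2% and 65.1% of reads in replicates 1 and 2), which were left out. The stranded count column with the larger total in both deposited tables was taken as sense.

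CPM is the sense count per 1000000 sense counts. Ratios add 0.5 to each count and use TMM (edgeR 4.0.16), with DESeq2 1.42.0 size factors and raw totals as alternatives. No test was run, because the series has 1 group. Intervals are exact at 95%. The ratio was also computed on simulated counts with known folds. These held counting error only, so they cannot show how it behaves under the wider spread between the real libraries. A host is a longer gene on the same strand that contains the whole miRNA gene. The genes, lists and naming rule (all 9 genes, the 5 highest of the list, the nearest genes, the 3 highest genes of the class outside the group) were chosen with earlier results of these data known.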

Additional observations from a re-analysis of the deposited data

How the results depend on the processing

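No paired analysis was possible because the series has 1 group. The summed level of the 9 genes was 28937 CPM with all reads as denominator and 243790 CPM of sense counts without the 20 highest other genes, which follows from the size of the denominators. It stayed within 1 SD of 83048 CPM with TMM and with DESeq2 size factors. Both scalings were centred on the 2 libraries, so the mean could hardly move. The sum also stayed within 1 SD in the unstranded column, although Mir191 fell to 0 there and Mir744 rose from 37064 to 40112 CPM. With 1 library left out it was 77675 to 88421 CPM. Genes past 1.5-fold between the libraries numbered 4 with TMM and with raw totals, each beside 47.4% of expressed genes. With 5 added to each count there were 4, and in the unstranded column 4 of the 8 genes with counts. Shares over all expressed genes were not computed for those settings. The number was 2 with DESeq2 size factors, beside 47.2% of expressed genes. Relative to the median of the hairpin GC class, an alternative chosen after seeing the data, it was 2, beside 40.1%. A limit of 2-fold gave 2. The ratio of Mir191 to Mir425 was 0 in the unstranded column, where Mir191 has no counts, and 17.1 to 29.0 with 1 library left out. Over all genes, 619 had 1 count or more in both libraries, against 409 at 2 CPM or more. All 9 genes passed a limit of 10 CPM. Library totals bound the precision to counting error, which was not small beside the spread between the libraries for Mir186. For Mir191 the counting intervals of replicate 1 (9809 to 9980 CPM) and replicate 2 (10030 to 10216 CPM) did not overlap.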
